A study of Mus musculus with 12 samples.

Results

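This comparison asked what seeding with pathological tau does to the hippocampal transcriptome of otherwise normal mice, and it set 3 tau-injected mice against 3 PBS-injected mice on the control diet, 6 of the 12 mice sequenced, taken by their labels. All 6 were C57Bl6/J mice with a wild-type genotype and a male label, kept on a standard TestDiet chow. At 6 months of age they received 1 unilateral injection into the hippocampus, either of PBS or of 1 µg of AD tau, the sarkosyl-insoluble tau purified from frontal cortex of people with Alzheimer's disease. They were killed 6 months later, 24 h after a test of remote fear memory, so both groups also shared the behavioural training. RNA came from 1 mm slices of the right dorsal hippocampus, and 300 ng of it was made into stranded poly(A) libraries. The sham was PBS and not an extract of control brain, and the mice carried no tau transgene. The remaining 6 mice received the same injections on a chow with 5% acetate, and they entered the fit so that all 4 groups shared 1 estimate of the spread.

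AD tau is used as a seed. Injected fibrils template the misfolding of the mouse's own tau, and the resulting inclusions can spread along axons to connected cells and appear in oligodendrocytes. Oligodendrocytes wrap axons in myelin, a membrane stack made of a few abundant proteins and of unusual lipids with very long or hydroxylated chains, and their transcripts are among the most abundant in tracts next to the hippocampus. The dorsal hippocampus itself holds the pyramidal cells of CA1, CA2 and CA3, the granule cells of the dentate gyrus, interneurons and glia, and it lies between the ciliated ependyma of the ventricle, the choroid plexus and the thalamus.

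The 6 libraries held 12983233 to 17355376 counts on genes, and 14742 of the 24985 genes listed passed edgeR's filter on low counts. Levels are given as CPM, the counts scaled to a common library size after TMM normalization, with scaling factors between 0.99 and 1.00, and differences as log2 fold changes of tau over PBS with their standard errors (SE). Xist, which coats an X chromosome to silence it in female cells, reached 13583 to 25991 counts in all 12 libraries, and none of 8 Y-linked genes had a count, so the libraries go against the male label. The 4 globin genes looked for were listed at 0 in all 12 mice, and so were Rpl26 and Ndufs5, genes that every cell uses, so a listed 0 was not read as absence. Tau mouse 2 stood apart. The SD over genes of its log2 difference from the other 5 mice was 0.214 to 0.268, against 0.189 to 0.216 among those 5. It scored 17.1 on a first principal component that carried 35.5% of the variance. That component also separated the groups, with PBS mice 1 to 3 at -4.55, -7.48 and -9.69 and tau mice 1 and 3 at 3.12 and 1.48. Its largest loadings were those of Prkcd (-0.104), a thalamic marker, and Ccn3 (0.0994), a CA1 marker. The part of dissected tissue in this component was not tested. PBS mouse 2 held the most RNA of thalamic markers, as described below with them. Nothing in the labels names a batch, and nothing says that the mice were littermates.

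The difference between the groups was small for most genes. The median absolute log2 fold change over the 14742 genes was 0.0869, against a median SE of 0.102, and the median signed change was -0.00086. An absolute change above 1 was found for 134 genes, 89 lower and 45 higher in tau mice, and most of these lay below 5 CPM, where the median SE was 0.28 or more. Above 100 CPM, the median absolute change was 0.05 and 0 of 2418 genes passed 1. The genes that stood out at high levels were those of oligodendrocytes, all but 4 of which lay below 0 in the plot of change against level.

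**Figure D1:**
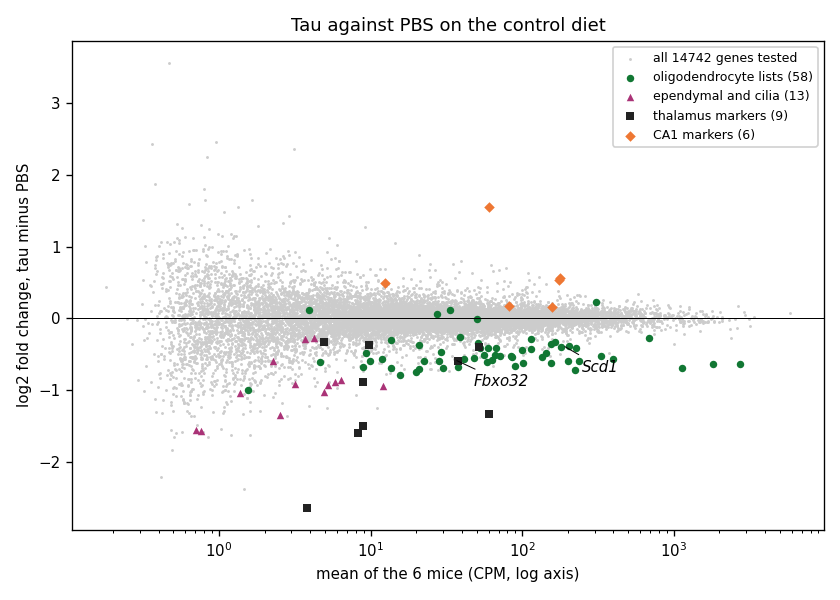
Log2 fold change of tau over PBS on the control diet (vertical axis) against the mean level of the 6 mice in CPM (horizontal log axis) for the 14742 genes tested (grey). The 58 oligodendrocyte genes (circles) lie mostly below 0 up to the highest levels, as do the 13 ependymal genes (triangles) and 9 thalamic markers (squares), while the 6 CA1 markers (diamonds) lie above 0. Scd1 and Fbxo32 are the genes called by edgeR.

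Scd1 and Fbxo32 were the only genes that passed the test. edgeR's quasi-likelihood test called these 2 of 14742 genes lower (0.0136% of genes tested) and 0 higher at a Benjamini-Hochberg adjusted p below 0.1. At an unadjusted p below 0.05, 714 genes were lower (4.84%) and 709 higher (4.81%). The Wald test of DESeq2, fitted to the 12 mice, gave 59 lower genes (0.476%), both edgeR calls among them, and 27 higher genes (0.218%). The levels of all 3 tau mice lay below those of all 3 PBS mice for 1008 genes (6.84%) and above them for 975 (6.61%). For 1 gene taken alone, an exact permutation test of 3 mice against 3 cannot give a two-sided p below 0.1.

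Scd1 encodes stearoyl-CoA desaturase 1, which puts the double bond into saturated fatty acids for membrane and storage lipids. Its level was 214, 211 and 195 CPM in PBS mice 1 to 3 and 161, 149.6 and 168 CPM in tau mice 1 to 3. The groups did not overlap, and Scd1 fell by 1.29-fold (log2 fold change -0.37 ± 0.06 SE, adjusted p = 0.0879 by edgeR and 0.000780 by DESeq2). It lies on the reverse strand of chromosome 19 at 44394455 to 44407879 of GRCm38. Scd2, the desaturase most abundant in brain, showed a smaller difference in the same direction, 1667, 1533 and 1525 CPM in PBS mice and 1375, 1349.6 and 1455 CPM in tau mice (-0.18 ± 0.06, adjusted p = 0.371). Signs were mixed over the genes of lipid synthesis as a whole. Of 15 fatty acid synthesis and desaturation genes tested, 9 lay below 0 with a median of -0.03, and of 23 cholesterol synthesis genes 13 lay below 0, also with a median of -0.03. At an unadjusted edgeR p below 0.05, 3 of the 15 and 2 of the 23 were lower (4.84% of all genes), and 0 were higher in either list (4.81% of all genes). The fatty acid list, Scd1 and Scd2 included, summed to 2869 to 3104 CPM in PBS mice and 2703 to 2798 CPM in tau mice.

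Fbxo32 encodes atrogin-1, the substrate receptor of a muscle ubiquitin ligase and a target of FoxO factors and glucocorticoids. PBS mice had 43.3, 42.5 and 41.1 CPM and tau mice 32.9, 23.8 and 28.8 CPM. Fbxo32 fell by 1.49-fold (log2 -0.57 ± 0.10, adjusted p = 0.0879 by edgeR and 0.000844 by DESeq2), with every tau mouse below every PBS mouse. It lies on chromosome 15 at 58175879 to 58214932. Other genes under glucocorticoids and FoxO went no single way. Of 20 tested, 9 lay below 0 and 11 above with a median of 0.00, and Plin4, a lipid droplet coat protein, had the next smallest p among the 20 (3.67, 2.70 and 4.54 CPM against 2.02, 1.66 and 2.44 CPM, -0.85 ± 0.23, adjusted p = 0.296). At an unadjusted edgeR p below 0.05, 2 of the 20 were lower and 3 higher (4.84% and 4.81% of all genes). Groups did not overlap for 2 lower and 3 higher members (6.84% and 6.61% of all genes). The edgeR calls of Scd1 and Fbxo32 depended on the mice used. With 1 of the 12 mice left out in turn, Scd1 kept an adjusted p below 0.1 in 3 of 12 fits and Fbxo32 in 4 of 12. No gene was called without PBS mouse 2 or 3, tau mouse 2 or 3, PBS mouse 1 or 2 on acetate, or tau mouse 2 on acetate.

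Genes of mature oligodendrocytes lay lower in tau mice as a group. Of 58 such genes in 4 lists, all tested, 54 had a log2 fold change below 0 (50.3% of all genes did), with a median of -0.53 and a range from -1.0 to 0.23. An unadjusted p below 0.05 in the lower direction was reached by 52 of the 58 (26 without PBS mouse 1, and 32 without tau mouse 1 or tau mouse 2) and by 0 in the higher direction. The shares over all genes were 4.84% lower and 4.81% higher. In 50 of the 58, no tau mouse reached the level of any PBS mouse (6.84% of all genes). None passed edgeR's adjusted threshold in the fit on 12 mice, and DESeq2 called 16 of the 58 lower (0.476% of all genes). edgeR fitted to the 6 compared mice alone called 17 of the 58 lower (0.224% of all genes), Mbp, Cldn11, Gjb1, Fa2h, Nkx6-2, Dbndd2 and Tppp3 among them, and edgeR with the replicate number as a block called 3 (0.0543%). The 16 DESeq2 calls were 27.1% of the 59 genes DESeq2 called lower and 27.6% of the oligodendrocyte genes. In bulk tissue, fewer oligodendrocytes, less RNA per oligodendrocyte and less adjoining tract in the slice cannot be told apart. Genes of 1 cell type are also not independent of each other.

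The structural proteins of compact and uncompacted myelin came first in level. All 12 lay below 0 (median -0.61, range -0.70 to -0.41), with non-overlapping groups for all 12 (6.84% of all genes, lower). Mbp, the basic protein that zips the cytoplasmic faces of myelin together, was counted at 3779, 3242 and 3028 CPM in PBS mice and 2056, 2010.4 and 2364 CPM in tau mice (-0.64 ± 0.18, adjusted p = 0.351 by edgeR and 0.0706 by DESeq2). Mobp, a small basic protein of compact myelin, stood at 1668, 1319 and 1248 CPM against 809, 812 and 993 CPM (-0.70 ± 0.21). PBS mouse 1 was the highest for both and tau mouse 3 the highest of its group. Cldn11, the claudin that seals the layers of myelin, gave 216, 175 and 169 CPM against 122, 110.2 and 132 CPM (-0.62 ± 0.19, adjusted p = 0.369). Pllp, plasmolipin, had the smallest difference of the 12 (-0.41 ± 0.17). The summed level of the 12 genes was 9839, 8110.1 and 7609 CPM in the PBS mice and 5224, 5074 and 6146 CPM in the tau mice, 8519 ± 1170 against 5481 ± 580.2 (mean ± SD, n = 3).

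Enzymes of myelin lipids and gap junction genes followed. All 10 lay below 0 (median -0.54), 8 with non-overlapping groups (6.84% of all genes, lower), and DESeq2 called 5 (0.476% of all genes, lower). Gjb1 encodes connexin 32, which joins the layers of the myelin sheath by gap junctions, and it had 23.3, 18.6 and 17.4 CPM in PBS mice and 11.3, 9.95 and 13.3 CPM in tau mice (-0.79 ± 0.18, adjusted p = 0.265 by edgeR and 0.0154 by DESeq2). Every tau mouse lay below every PBS mouse. Fa2h, the hydroxylase that makes the 2-hydroxy fatty acids of myelin galactolipids, had 53.8, 47.0 and 46.3 CPM against 28.6, 32.8 and 38.0 CPM (-0.57 ± 0.15, DESeq2 adjusted p = 0.0262). Aspa, the aspartoacylase that frees acetate from N-acetylaspartate in oligodendrocytes, had 29.5, 27.7 and 19.8 CPM against 14.2, 13.2 and 19.8 CPM (-0.71 ± 0.20, DESeq2 adjusted p = 0.0326), with PBS mouse 3 and tau mouse 3 at nearly the same level. Cers2, the synthase of very-long-chain ceramides, was also called by DESeq2, and its groups overlapped. Ugt8a, which adds galactose to ceramide, had the largest SE of the 10 (-0.59 ± 0.24, adjusted p = 0.481).

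Transcription factors of the lineage were lower by less. Of 10, 8 lay below 0 with a median of -0.38, and 7 had non-overlapping groups (6.84% of all genes, lower). Nkx6-2, a homeodomain factor of maturing oligodendrocytes, was at 16.8, 17.8 and 15.6 CPM in PBS mice and 9.30, 9.82 and 11.9 CPM in tau mice (-0.70 ± 0.15, adjusted p = 0.231 by edgeR and 0.0225 by DESeq2). Nkx2-2, which acts earlier in the same lineage, was at 6.64, 5.64 and 4.60 CPM against 3.75, 3.71 and 3.59 CPM (-0.61 ± 0.19). Myrf, the activator of myelin genes, was at 121, 99.8 and 84.0 CPM against 63.7, 64.7 and 81.8 CPM (-0.54 ± 0.19). The groups were separate for all 3 of these. Sox10, which oligodendrocytes express at every stage, differed by -0.51 ± 0.19 and Olig1 by -0.29 ± 0.09. St18, Zfp536 and Zfp488 lay between -0.0034 and 0.12 with overlapping groups.

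The remaining list held 26 other genes enriched in mature oligodendrocytes, of which 24 lay below 0 (median -0.50). Non-overlapping groups were found for 23 (6.84% of all genes, lower), and DESeq2 called 9 (0.476% of all genes, lower). Dbndd2 had the third smallest p of all genes, at 185, 169.7 and 169 CPM in PBS mice and 136, 135 and 137 CPM in tau mice (-0.36 ± 0.06, adjusted p = 0.121 by edgeR and 0.00281 by DESeq2). The 3 tau mice were within 2 CPM of each other. Tppp3, a tubulin polymerization-promoting protein, was at 39.1, 28.8 and 34.5 CPM against 20.7, 22.5 and 25.1 CPM (-0.59 ± 0.13, DESeq2 adjusted p = 0.0210). Bcas1, which marks oligodendrocytes that are laying down myelin, was at 318, 269 and 249 CPM against 158, 156 and 192 CPM (-0.72 ± 0.19). Hapln2, a link protein of the matrix at nodes of Ranvier, was at 43.4, 39.3 and 29.0 CPM against 22.4, 21.2 and 25.7 CPM, and Trf, the transferrin that oligodendrocytes secrete, at 559, 443 and 417 CPM against 310.5, 295 and 353 CPM. Pex5l and Itpr2, the 2 members above 0, differed by 0.23 ± 0.14 and 0.11 ± 0.07. Precursors did not share the direction, since 8 of 10 precursor markers lay above 0 with a median of 0.09, and Cspg4, the NG2 proteoglycan, was at 19.2, 18.8 and 17.5 CPM in PBS mice and 21.8, 25.3 and 22.2 CPM in tau mice (0.32 ± 0.09, adjusted p = 0.303).

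The 4 oligodendrocyte medians kept their sign in every fit that left out 1 of the 12 mice, and those of the structural myelin list ran from -0.70 to -0.45. With groups that did not overlap for 50 of the 58 genes, leaving out 1 mouse could hardly turn these signs. The fits without an acetate-diet mouse kept all 6 compared mice. The kept sign is therefore a description and not a test. The number of structural myelin genes at an unadjusted p below 0.05 rested more on single mice, with 3 of 12 without PBS mouse 1, 6 without tau mouse 1 and 5 without tau mouse 2. Without both mice numbered 2, an alternative added after the data were seen, the structural myelin median was -0.59 and 2 of 12 genes were below that cutoff.

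**Figure D2:**
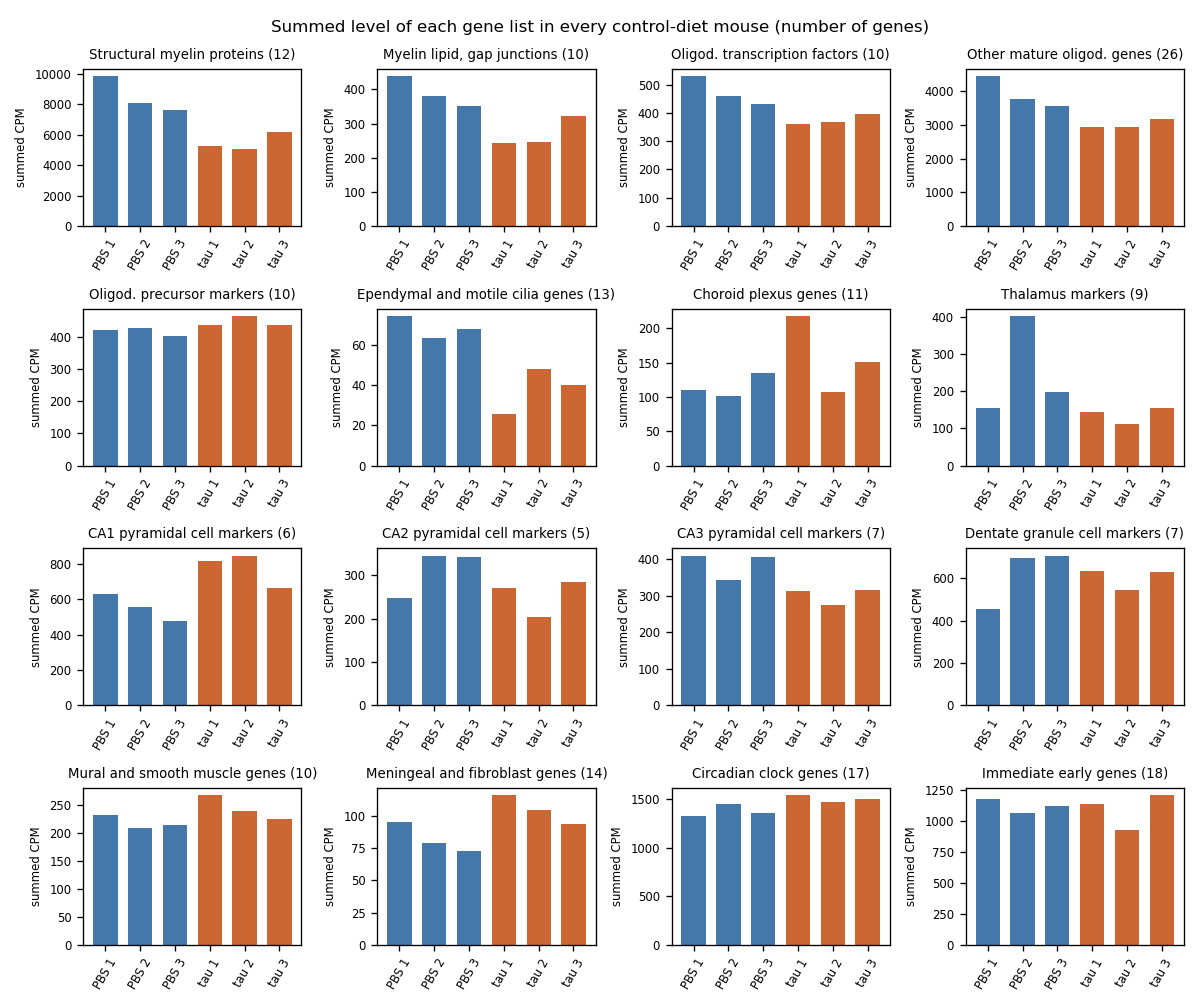
Summed level in CPM (vertical axis, from 0) of 16 gene lists in each of the 3 PBS mice (blue) and 3 tau mice (orange) on the control diet, with the number of genes tested in brackets. The 4 oligodendrocyte lists and the ependymal list are lower in every tau mouse than in any PBS mouse, the CA1 list is higher, and PBS mouse 2 alone is high for the thalamic markers.

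The 250 bases upstream of the start sites of the oligodendrocyte genes were searched on both strands for the letters of 5 motifs. The promoter table of RefSeq on GRCm38.p6 matched 39 of the 58 genes with 58 promoters. A gene with several promoters enters more than once. ACAAAG, a core sequence of SOX factors such as Sox10, was in 13 of the 58 promoters (22.4%), in 12.3% of the 14713 promoters of tested genes and in 16.5% of all 32851. CCAAT, the NF-Y motif, was in 37.9% against 34.7% of those of tested genes, CACGTG in 6.9% against 8.01%, GTAAACA in 1.72% against 2.13% and TCACNCCAC in 1.72% against 0.992%. None of the 5 contains another. A match is a run of letters and not a measured site. Of the oligodendrocyte genes named by rule, Aspa, Cldn11, Nkx2-2 and Nkx6-2 had 1 promoter each in the table. That of Aspa holds CCAAT on either strand and that of Nkx2-2 does not. The 2 promoters shown are those of Cldn11 and Nkx6-2, a myelin gene and a lineage factor, and capitals mark CCAAT on either strand. They cover chr3:31149670-31149919 (forward strand) and chr7:139582798-139583047 (reverse strand), each written 5′ to 3′ along its gene.
Cldn11: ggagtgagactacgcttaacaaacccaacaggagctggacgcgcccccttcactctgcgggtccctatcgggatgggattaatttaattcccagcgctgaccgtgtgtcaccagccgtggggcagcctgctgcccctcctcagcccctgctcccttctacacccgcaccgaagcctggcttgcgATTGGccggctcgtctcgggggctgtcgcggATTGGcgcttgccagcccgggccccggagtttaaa
Nkx6-2: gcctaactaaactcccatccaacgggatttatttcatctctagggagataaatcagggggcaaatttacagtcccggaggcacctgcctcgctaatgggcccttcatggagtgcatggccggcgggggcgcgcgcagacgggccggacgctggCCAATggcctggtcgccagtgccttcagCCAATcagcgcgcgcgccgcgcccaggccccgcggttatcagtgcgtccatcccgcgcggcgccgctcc
Each holds CCAAT on 1 strand at 2 places and no ACAAAG on either.

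Genes of ependymal cells and motile cilia were lower as well, at much lower levels. Ependymal cells line the ventricle and beat fluid with cilia. All 13 genes lay below 0 with a median of -0.93 (range -1.58 to -0.27). Of these, 8 were below the unadjusted cutoff (4.84% of all genes were, in the lower direction). Non-overlapping groups were found for 9 (6.84% of all genes, lower), and DESeq2 called 2 (0.476% of all genes, lower). Foxj1, the factor that switches on motile cilia genes, was at 16.3, 16.5 and 15.3 CPM in PBS mice and 5.77, 9.62 and 9.46 CPM in tau mice (-0.95 ± 0.25, adjusted p = 0.303 by edgeR and 0.0222 by DESeq2). Rarres2, the adipokine chemerin, was at 9.20, 6.18 and 9.41 CPM against 3.75, 5.77 and 4.20 CPM (-0.85 ± 0.19, DESeq2 adjusted p = 0.0385). Pifo, which takes part in cilia disassembly, was at 1.11, 0.849 and 1.22 CPM against 0.361, 0.332 and 0.381 CPM (-1.56 ± 0.41). Tau mouse 1 was the lowest for most of these genes. The list summed to 74.5, 63.4 and 68.0 CPM in the PBS mice and 25.6, 48.4 and 40.0 CPM in the tau mice. Choroid plexus genes, which border the ependyma, went no single way, with 7 of 11 above 0 and Ttr, transthyretin, at 50.8, 49.4 and 78.4 CPM against 148, 53.7 and 91.2 CPM. In how far the amount of ventricle wall in each slice enters these values was not tested.

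Markers of hippocampal subfields and of the thalamus also differed between the slices. All 9 thalamic markers lay below 0 with a median of -0.89, and the list summed to 156, 403 and 198 CPM in the PBS mice against 145, 112 and 155 CPM in the tau mice, none of the 9 at 0 in any mouse. Prkcd, a protein kinase C of thalamic relay cells, was at 51.9, 130.0 and 77.4 CPM against 40.6, 13.6 and 48.6 CPM (-1.34 ± 0.51, adjusted p = 0.467). Tnnt1 was at 1.40, 13.9 and 4.40 CPM against 0.938, 1.26 and 0.839 CPM (-2.64 ± 0.74). PBS mouse 2 was the highest for all 9. Without it the thalamic median was -0.18, and without both mice numbered 2 it was -0.15. The structural myelin median was -0.65 and -0.59 in these fits, and the part of neighbouring tissue in it was not tested. The part of thalamic tissue in the single values of Tnnt1, Vipr2 and Nexn, 3 of the 6 largest lower changes above 1 CPM, was not tested, and all 3 were highest in PBS mouse 2, at 13.9, 4.94 and 8.19 CPM.

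**Figure D3:**
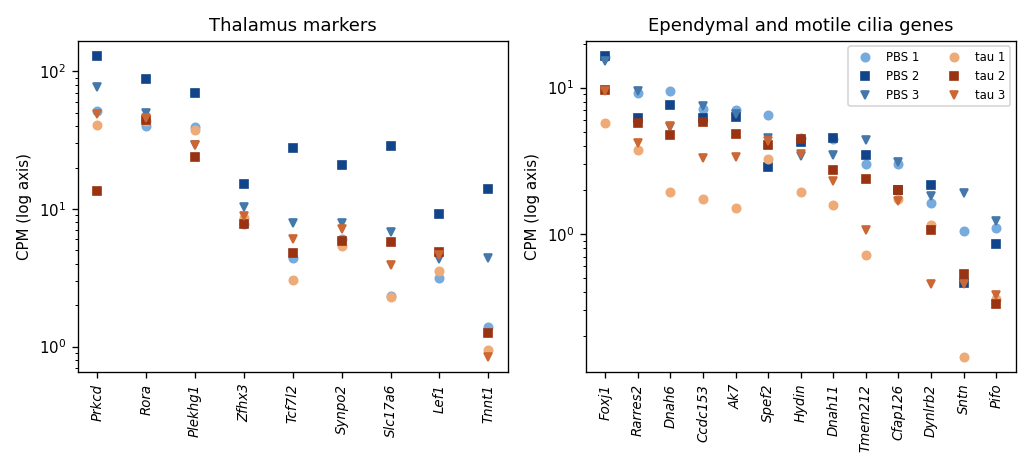
Level in CPM (log axis) of each thalamic marker (left) and each ependymal or cilia gene (right) in the 6 control-diet mice, ordered by mean level. PBS mouse 2 (dark blue squares) is the highest for all 9 thalamic markers, and tau mouse 1 (light orange circles) is the lowest for most ependymal genes.

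CA1 markers were higher and CA3 markers lower in the tau slices. All 6 CA1 markers lay above 0 with a median of 0.51, and they summed to 629, 553 and 476 CPM in the PBS mice and 817, 846 and 662 CPM in the tau mice. Fibcd1, an acetylated-carbohydrate receptor, was at 159, 139 and 130.5 CPM against 204, 245 and 170.4 CPM (0.53 ± 0.17, adjusted p = 0.375), and Mpped1 at 165, 142 and 121 CPM against 217, 233 and 184 CPM (0.56 ± 0.20). Ccn3, a matricellular protein, was at 39.4, 28.2 and 24.0 CPM against 50.3, 162 and 56.3 CPM (1.55 ± 0.58 with all mice and 0.80 without tau mouse 2). Wfs1, a classical CA1 marker, was at 172, 151 and 125 CPM against 229, 115 and 155 CPM with overlapping groups. Of 7 CA3 markers 6 lay below 0 (median -0.35), with Iyd at 11.3, 9.65 and 12.6 CPM against 8.58, 4.18 and 7.55 CPM. The 5 CA2 markers lay below 0 with overlapping groups for each, and the 7 dentate granule cell markers had a median of 0.02. None of these markers passed an adjusted threshold in either tool, where edgeR called 0.0136% of all genes lower and DESeq2 0.476% lower and 0.218% higher. Whether the share of each subfield in the dissected slices enters the results on other genes was not tested.

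Among genes higher in tau mice, the smallest p belonged to a gene of the circadian clock. The clock is a feedback loop in which CLOCK or NPAS2 with ARNTL drives the period, cryptochrome and Bhlhe40 genes, which repress it in turn. Of 17 clock genes 12 lay above 0 with a median of 0.11. Groups did not overlap for 6 (6.61% of all genes, higher), and DESeq2 called 3 (0.218% of all genes, higher). The CA1 list, with a median of 0.51, the meningeal list (0.36) and the mural list (0.18) lay higher as lists. Bhlhe40, a repressor and the gene with the smallest p, was at 86.7, 94.5 and 89.7 CPM in PBS mice and 119, 129 and 116 CPM in tau mice (0.43 ± 0.08, adjusted p = 0.194 by edgeR and 0.00414 by DESeq2). Npas2, an activator, was at 16.7, 16.2 and 12.5 CPM against 21.3, 24.3 and 20.4 CPM (0.54 ± 0.12, DESeq2 adjusted p = 0.0326). Per2, a repressor, was at 37.5, 38.9 and 33.4 CPM against 45.8, 44.8 and 57.1 CPM (0.43 ± 0.09, DESeq2 adjusted p = 0.0225). All 3 were higher in each tau mouse. Per1 followed at 76.6, 64.6 and 61.1 CPM against 79.0, 80.9 and 89.1 CPM (0.30 ± 0.08). Arntl, the obligate partner of the activators, differed by -0.0033 ± 0.08, Clock by -0.05 ± 0.06, and Dbp, an output gene with a strong daily rhythm, by 0.18 ± 0.15. The labels give no time of day for the tissue.

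The other genes with the smallest p in the higher direction had mixed roles. Kcnh3, a voltage-gated potassium channel of forebrain neurons, was at 87.2, 93.4 and 90.1 CPM against 108, 114 and 103 CPM (0.26 ± 0.06). Tnfaip3, the NF-kB inhibitor A20, was at 7.10, 5.48 and 5.01 CPM against 9.09, 12.7 and 9.0 CPM (0.80 ± 0.18). In both, every tau mouse was above every PBS mouse. Notch3, the Notch receptor of vascular smooth muscle, was at 8.32, 10.3 and 8.87 CPM against 15.6, 12.8 and 11.4 CPM, and Myh11, smooth muscle myosin, at 5.12, 4.40 and 2.30 CPM against 11.3, 6.90 and 5.95 CPM (1.02 ± 0.27, DESeq2 adjusted p = 0.0433). Tau mouse 1 was the highest for both. Pak6, Xkr4, Ksr2, Stk26 and Frmd4a were also among the 12, with changes between 0.26 and 0.60. DESeq2 called all 12 of these higher genes and edgeR on 12 mice none, with edgeR adjusted p-values from 0.194 to 0.266. The 12 were picked for their small edgeR p in the same libraries, so the DESeq2 calls are not an independent test. edgeR called Bhlhe40 in the fit on the 6 compared mice (adjusted p = 0.0433, with 0.021% of all genes called higher), with the replicate block (adjusted p = 0.0820, 0.00678% of genes) and in 3 of the 12 fits with 1 mouse left out. Of the 6 largest higher changes above 1 CPM, Grp, Sec1, Ccn3, Ntn5, Met and Neurog2, tau mouse 2 was the highest mouse in all 6, and leaving it out lowered Grp from 2.37 to 0.84.

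**Figure D4:**
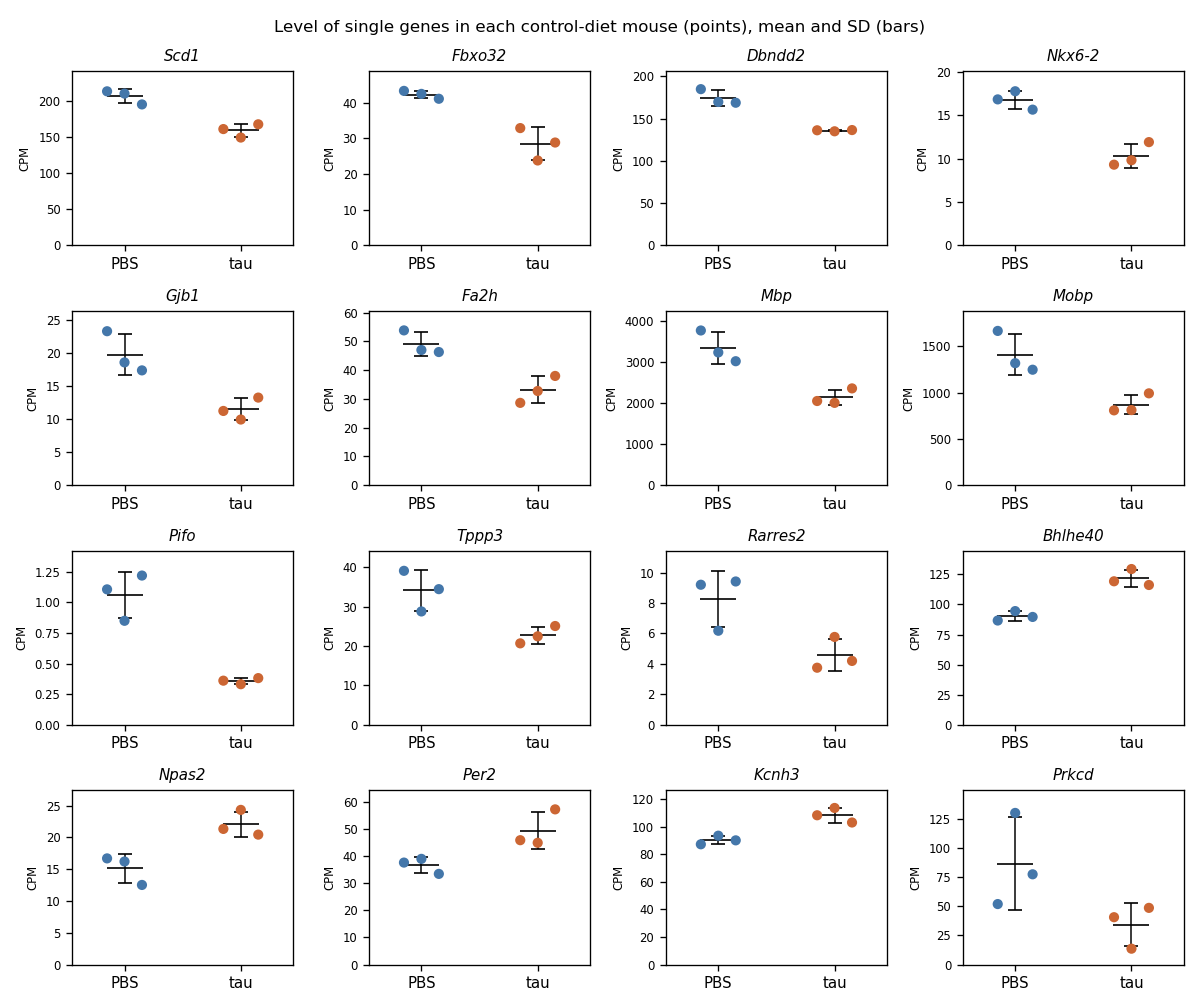
Level in CPM (vertical axis, from 0) of 16 genes in each of the 3 PBS mice (blue points) and 3 tau mice (orange points) on the control diet, with the mean and SD as bars. Scd1, Fbxo32, Dbndd2 and the oligodendrocyte genes are lower in every tau mouse, Bhlhe40, Npas2, Per2 and Kcnh3 are higher in every tau mouse, and Prkcd spreads widely within both groups.

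Other lower genes with small p were not among the 58 oligodendrocyte genes listed, and their cell source was not tested. Spry2, a feedback inhibitor of receptor tyrosine kinase signalling, was at 54.7, 54.4 and 61.6 CPM against 47.3, 42.4 and 47.5 CPM (-0.32 ± 0.07, DESeq2 adjusted p = 0.0354). Retreg1, a receptor for autophagy of the endoplasmic reticulum, was at 53.8, 57.5 and 57.7 CPM against 42.6, 40.5 and 48.8 CPM (-0.36 ± 0.07). Car14, a membrane carbonic anhydrase, was at 11.5, 10.7 and 9.07 CPM against 6.78, 6.70 and 7.17 CPM (-0.60 ± 0.13). The groups were separate in each case. Hhatl, Adamtsl4, Myo1e and Prrg1, also called by DESeq2, lay between -0.78 and -0.62. Kcnj10, the inward rectifier Kir4.1 that astrocytes and oligodendrocytes use to take up potassium, was at 214, 226 and 196 CPM against 179, 178 and 184 CPM (-0.23 ± 0.06, DESeq2 adjusted p = 0.0639). It was the 1 DESeq2 call (0.476% of all genes, lower) among 16 astrocyte genes with a median of 0.02.

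Of programmes often studied in tauopathy, none had a member that passed edgeR's adjusted threshold. Only 2 of all 14742 genes did (0.0136%), so the absence of calls in lists of this size says little about them. Microglial homeostatic genes had a median of 0.07 over 17 genes, type I interferon response genes -0.01 over 16 and complement and MHC class I genes -0.08 over 13. Of 17 genes of disease-associated microglia 12 lay below 0 (median -0.04). At an unadjusted p below 0.05, 4 were lower (4.84% of all genes) and 0 higher (4.81%). Levels were lower in every tau mouse than in any PBS mouse for 3 (6.84% of all genes). Csf1, a growth factor for microglia, was at 39.2, 41.4 and 36.5 CPM against 31.8, 31.2 and 33.1 CPM (-0.29 ± 0.08, adjusted p = 0.296), and Cd9, a tetraspanin that oligodendrocytes also express, at 50.6, 41.9 and 46.2 CPM against 37.8, 32.5 and 40.1 CPM (-0.33 ± 0.11). Both were lower in each tau mouse. Trem2, the lipid receptor needed for that state, was at 10.7, 9.65 and 12.1 CPM against 12.9, 11.1 and 8.09 CPM, and Apoe differed by 0.03 ± 0.06. C3, the central complement component, was at 9.95, 5.17 and 6.77 CPM against 1.44, 4.05 and 3.74 CPM (-1.25 ± 0.45, adjusted p = 0.415). No tau mouse was above a PBS mouse for C3, and both Trem2 and Apoe overlapped. Reactive astrocyte genes had a median of -0.04 over 14, with Vim, an intermediate filament of reactive astrocytes, at 50.9, 47.7 and 45.7 CPM against 41.9, 35.7 and 40.4 CPM (-0.29 ± 0.11). Of 18 immediate early genes, which neurons induce after activity, 12 lay below 0 with a median of -0.12. Fos was at 16.5, 12.7 and 13.1 CPM against 9.38, 5.37 and 13.2 CPM (-0.62 ± 0.26) and Npas4 at 14.6, 13.2 and 13.7 CPM against 13.6, 4.97 and 8.93 CPM, with tau mouse 2 lowest for both. Btg2, an antiproliferative early gene, was the 1 DESeq2 call among the 18 (-0.59 ± 0.19, DESeq2 adjusted p = 0.0987), where DESeq2 called 0.476% of all genes lower.

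The seeded protein's own gene differed little. Mapt, which encodes tau, was at 653, 612 and 619.5 CPM in PBS mice and 572, 591 and 598 CPM in tau mice (-0.10 ± 0.05, adjusted p = 0.591). Acss2, the enzyme that turns acetate into acetyl-CoA, was at 61.7, 54.1 and 53.6 CPM against 52.3, 57.6 and 57.1 CPM (-0.02 ± 0.07, adjusted p = 0.962). The 20 genes of tau and its kinases had a median of 0.02, 20 Alzheimer risk genes -0.02, 26 lysine acetylation genes 0.01 and 14 genes of acetate and acetyl-CoA metabolism -0.01. Among neuronal families, 24 of 35 glutamate receptor and auxiliary genes lay above 0 with a median of 0.06, 15 of 21 GABA receptor and inhibitory synapse genes with 0.04, 48 of 77 potassium channel genes with 0.03 and 20 of 32 sodium, calcium and HCN channel genes with 0.07. Inhibitory neuron markers had 9 of 13 above 0 with a median of 0.12, and Sprouty and ERK feedback genes 9 of 13 with 0.13. Vip, an interneuron neuropeptide, was at 7.63, 8.19 and 6.97 CPM against 10.6, 14.4 and 11.7 CPM (0.69 ± 0.18, DESeq2 adjusted p = 0.0781), and Cacna1i, a T-type calcium channel, at 71.4, 65.9 and 56.1 CPM against 78.2, 98.8 and 80.0 CPM (0.41 ± 0.10, DESeq2 adjusted p = 0.0320). Both were higher in each tau mouse. Reln and Ndnf, from a list of Cajal-Retzius markers, differed by 0.39 ± 0.12 and 0.43 ± 0.14, whereas Trp73, the marker of those cells among them, was at 6.58, 5.87 and 7.38 CPM against 4.33, 2.79 and 7.40 CPM. Housekeeping families had medians close to 0, with 61 of 76 respiratory chain genes below 0 (median -0.04), 27 of 37 proteasome genes (-0.03), 77 of 110 splicing genes (-0.03), 47 of 79 ribosomal protein genes (-0.02), 20 of 28 chaperone genes (-0.03) and 23 of 33 lysosomal genes (-0.03). The sign of the respiratory chain, proteasome and ribosomal medians turned without PBS mouse 3, to 0.0141, 0.0102 and 0.0409, and that of the respiratory chain and ribosomal medians without tau mouse 3, to 0.0057 and 0.0310. Vessel wall and matrix lists lay above 0, with 8 of 10 mural genes (median 0.18), 13 of 14 meningeal genes (0.36) and 26 of 38 collagen genes (0.10, and -0.0091 without PBS mouse 3). Synaptic vesicle, neurotrophin, RFX factor, noncoding RNA, neocortex, striatum, endothelial, neuropeptide and neurogenesis lists had medians between -0.02 and 0.04.

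The same injection in mice on the acetate diet gave values from 6 other mice for the genes just described. Of the 58 oligodendrocyte genes, 57 lay above 0 on the acetate diet with a median of 0.37, where 48.8% of all genes did with a median of -0.0035. Of the 12 lower genes with the smallest p, all 12 lay above 0 on the acetate diet, and of the 12 higher genes 8 lay below it. Scd1 was -0.37 ± 0.06 on the control diet and 0.34 ± 0.06 on the acetate diet. Nkx6-2 was -0.70 ± 0.15 and 0.38 ± 0.14, Gjb1 -0.79 ± 0.18 and 0.56 ± 0.17, and Foxj1 -0.95 ± 0.25 and 1.05 ± 0.25. Per2 was above 0 on both diets, at 0.43 ± 0.09 and 0.18 ± 0.09. The difference between the diets passed edgeR's test at an adjusted p below 0.1 for 230 genes (1.56%), for 14 of the 58 oligodendrocyte genes, 6 of the 13 ependymal genes, and 37 of the 59 genes DESeq2 called lower. These genes include ones chosen for their value on the control diet, which is 1 side of that difference, so the counts are a description. The ependymal median was 1.35 and the choroid plexus median 1.62 on the acetate diet, and their part in the other values was not tested.

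**Figure D5:**
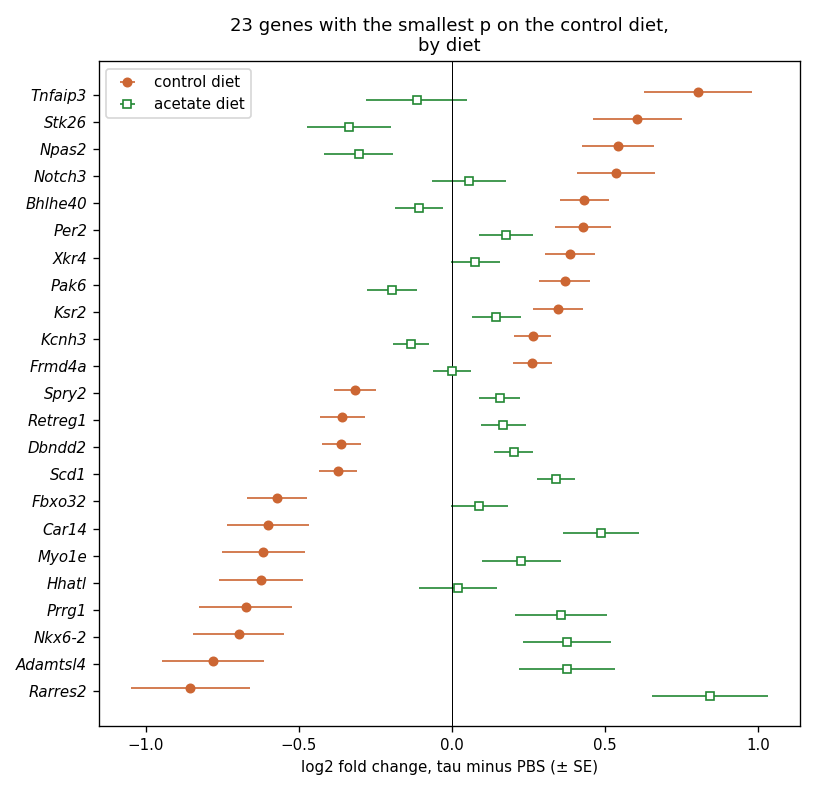
Log2 fold change of tau over PBS (horizontal axis, ± SE, 3 mice against 3) on the control diet (filled circles) and the acetate diet (open squares) for the 12 lower genes and 11 of the 12 higher genes with the smallest p on the control diet. All 12 lower genes lie above 0 on the acetate diet, while Per2, Xkr4, Ksr2 and Notch3 lie above 0 on both diets.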

How the data were processed

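The authors sequenced poly(A) RNA of 12 mice, aligned the reads with STAR 2.5.2a to GRCm38, counted exonic reads on the reverse strand with HTSeq 0.9.1 and deposited the raw counts of each mouse with no normalization. SAMtools 1.1 and DESeq2 are also named in the submitters' processing notes. All 12 columns were matched to samples by their titles, and 0 were left unused.

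Counts were filtered with filterByExpr (minimum count 10, minimum total 15), normalized by TMM and fitted in R 4.3.3 with edgeR 4.0.16's robust quasi-likelihood test over all 12 mice with 1 mean per group, with Benjamini-Hochberg adjustment over 14742 genes. The common biological coefficient of variation was 7.25%. The SE is the log2 fold change over the root of F. DESeq2 1.42.0 served as alternative tool, with its adjusted p left as NA for 2344 of the 14742 genes. Alternatives also covered size factors, the filter, the 6 compared mice alone, a stricter threshold, a replicate block and each mouse left out. Scripts were tested on simulated data. Replicates differed by more than counting noise, and no 2 libraries were alike.

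The comparison, its 54 gene lists and the rule for named genes were chosen with earlier results of these data known. Named were genes past the threshold, the 12 lower and 12 higher genes of smallest p at 5 CPM or more, the 6 lower and 6 higher of largest change at 1 CPM or more with an unadjusted p below 0.05, the 2 members of each list with the smallest p if below 0.05, and Mapt, Acss2, Xist and Y genes. Other list members were named for their known roles after their values were seen, and some genes that the rule or the lists cover are not reported here. Coordinates come from GENCODE release 21 on GRCm38, which held 14638 of the tested symbols, and promoters from RefSeq on GRCm38.p6. The labels name no cultures or litters, so p-values measure the spread between these mice.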

Additional observations from a re-analysis of the deposited data

Results flagged for a closer look

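Of 102 genes named by rule, 33 differed between the diets in their response to tau by edgeR's interaction test at an adjusted p below 0.1. The values are the log2 fold change of tau over PBS on the control diet minus that on the acetate diet, each from 3 mice against 3. These genes were picked for their control-diet values, which form 1 side of the difference, and the cause of the difference was not tested.

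The response was more negative on the control diet for 24 of the 33. Scd1 came first, with -0.71 ± 0.09 SE and an edgeR adjusted p of 0.0024. Fbxo32, the other gene called on the control diet, had -0.66. The values of oligodendrocyte genes were Tppp3 (-1.28), Dbndd2 (-0.56), Nkx6-2 (-1.07), Gjb1 (-1.35) and Fa2h (-1.21). Those of ependymal genes were Rarres2 (-1.70), Pifo (-3.03) and Tmem212 (-2.70). The remaining genes on this side were Car14 (-1.09), Plin4 (-1.80), Vim (-0.93), Kcnj10 (-0.42), Retreg1 (-0.53), Spry2 (-0.47), Adamtsl4 (-1.15), Prrg1 (-1.03), Myo1e (-0.84), Lamp1 (-0.29), C3 (-3.60), Csf1 (-0.45), Sypl (-0.37) and Qk (-0.37).

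The response was more positive on the control diet for 9 genes, which were Npas2 (0.85), Pak6 (0.56), Gabrg1 (0.61), Stk26 (0.94), Kcnh3 (0.40), Bhlhe40 (0.54), Grm5 (0.30), Tnfaip3 (0.92) and Ntn5 (2.57).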

How the results depend on the processing

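Counts of called genes were the values that moved most with the processing. For the comparison of tau with PBS on the control diet, edgeR on the 6 compared mice called 32 genes lower and 3 higher, DESeq2 on the 12 mice 59 and 27, and DESeq2 on the 6 mice 119 and 51, against 2 and 0 in the edgeR fit on 12 mice. An adjusted p below 0.05 left 0 lower. With the replicate number as a replicate block, 8 genes were lower and 1 higher. The labels do not say that a number marks a shared litter or day, and same-numbered PBS and tau mice correlated at -0.11, -0.04 and -0.11 in their deviations from the group means over genes at 5 CPM or more, so the numbers were not taken as pairs. Leaving out 1 of the 12 mice at a time, the lower count ran from 0 to 15 and the higher count from 0 to 2. The lower count was 0 without PBS mouse 2 or 3, tau mouse 2 or 3, PBS mouse 1 or 2 on acetate, or tau mouse 2 on acetate, 1 without tau mouse 1, 6 without PBS mouse 1, 7 without tau mouse 1 on acetate and 15 without tau mouse 3 on acetate. Without both control-diet mice numbered 2, it was 0, and 456 genes were lower at an unadjusted p below 0.05.

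The number of genes whose response differed between diets was 230, and it was 438 by DESeq2 on 12 mice, 43 at an adjusted p below 0.05 and 349 with the replicate block, and 8 to 442 with 1 mouse left out (8 without PBS mouse 2 on acetate, 442 without tau mouse 3 on acetate). At an unadjusted p below 0.05, the lower count ran from 454 (without tau mouse 2) to 797 and the higher count from 450 to 824 with 1 mouse left out, and DESeq2 on 6 mice gave 472 higher. Among named genes, Acss2 changed sign, with 0.0469 without PBS mouse 1 and 0.0221 without tau mouse 1, in a range from -0.0566 to 0.0469 over the 12 fits. Across 1938 refits of named genes, 1812 kept their direction and their side of the threshold, 105 newly passed it, 19 no longer did and 2 changed sign. With 1 mouse left out, the median of 26 of the 53 gene lists with a gene tested changed sign in at least 1 fit, and none of the 26 lay beyond 0.23 of 0 in the fit on 12 mice. Medians of gene lists moved by less than the SD between PBS mice in 955 of 1007 refits. DESeq2 size factors and no filter on low counts moved none of the counts by over 1.5 times. With 3 mice a group and a median SE of 0.102, small differences in single genes could not be resolved. Larger ones also missed the threshold, such as Nkx6-2 (-0.70 ± 0.15, edgeR adjusted p = 0.231) and Mbp (-0.64 ± 0.18, edgeR adjusted p = 0.351).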
